A study of Mus musculus with 6 samples.

Results

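The genes described here are 10 transcription factors and cofactors of the B lineage and of plasma cells: Pax5, Ebf1, Spib, Pou2af1, Irf8, Bach2, Bcl6, Irf4, Prdm1 and Xbp1. They were chosen by name, and all 10 were measured among 22180 genes analysed on Affymetrix arrays. Each gene is represented by the probe set that names it alone in the platform annotation and, where there are several, by the brightest over the 6 arrays. Total RNA came from the mouse line DP42, labelled as multiple myeloma, the cancer that arises from antibody-secreting plasma cells. After 24 h the line had been kept by itself, beside mouse B cells (the study's control) or beside mouse neutrophils, and each of these 3 groups had 2 arrays. The neutrophil label reads "neutrophils (IMC)", an abbreviation left unexplained in the labels, and the sample descriptions call the same partner myeloid cells. Flow sorting parted the co-cultured populations before lysis. The sources used here give no genotype for DP42, no strain or age for the partner cells and do not say whether a group's arrays are separate cultures. All groups share this 1 line. The p-values reflect spread between arrays that may be technical.

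Mature B cells and plasma cells are held apart by opposing regulators. Ebf1 and Pax5 specify and maintain B cell identity, Bach2 and Bcl6 repress the plasma cell gene Prdm1, and the protein made from Prdm1, Blimp-1, represses Pax5 and Bcl6 in turn. Irf4 acts by dose in both states, and Xbp1 expands the secretory apparatus of antibody-secreting cells after its mRNA is spliced by the stress sensor Ire1. Irf4, Irf8 and the cofactor Pou2af1 work on shared elements with ETS factors such as Spi-B and with octamer-binding proteins.

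The signal of 8 of the 10 genes was high, while Prdm1 and Bcl6 were dim on every array. In limma's test none of the 10 differed between any pair of cultures at an adjusted p under 0.05. Few genes did: 0.0496% of all genes for neutrophils minus B cells, 1.49% for neutrophils minus alone and 0% for B cells minus alone, so a count of 0 among 10 genes does not set them apart. The largest differences were in Prdm1, 0.22 ± 0.09 (log2, ± SE) higher with neutrophils than alone, and in Spib, 0.22 ± 0.09 higher with neutrophils than with B cells. These are 1.16-fold in each case, with adjusted p of 0.268 and 0.246 (limma, Benjamini-Hochberg over 22180 genes, 2 arrays a group).

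Elements near the starts of these genes were read from RefSeq sequence of GRCm38.p6, at first because IRF family proteins bind interferon-response elements. The table holds 13 start regions for the 10 genes, each 250 bases before to 50 bases after a start. The interferon-stimulated response element core was searched as GAAANNGAAA, the ETS-IRF composite element as GGAANNGAAA and the interferon-gamma activated site (GAS) as TTCNNNGAA, all on both strands. The GAS element reads the same on both strands and is not given here as a site of IRF proteins. In all, 15 letter patterns were looked at in these regions and 3 are given; the GAS element was chosen after its matches had been seen, so the number of genes that hold it supports nothing. The first occurs in 3.44% of the 32851 start regions in the table, the second in 2.72% and the third in 8.30%. Among the 13 regions the first matched 1 (Ebf1), the second matched 2 (Bach2 and Bcl6) and the third matched 4 (Bach2, Irf8 and both Bcl6 regions), and no matches overlapped. The stretches with matches are shown 5′ to 3′ on the gene's strand with the matches in capitals. They are chr8:120736167-120736233 (plus strand) for Irf8, chr4:32417275-32417434 (plus) for Bach2, chr11:44617925-44617974 (plus) for Ebf1 and chr16:23981284-23981471 (minus) for the second start of Bcl6. All 4 stretches lie before the start. A further stretch at the other Bcl6 start holds 1 GAS match and is not shown.
Irf8: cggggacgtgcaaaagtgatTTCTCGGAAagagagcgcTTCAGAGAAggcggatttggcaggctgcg
Bach2: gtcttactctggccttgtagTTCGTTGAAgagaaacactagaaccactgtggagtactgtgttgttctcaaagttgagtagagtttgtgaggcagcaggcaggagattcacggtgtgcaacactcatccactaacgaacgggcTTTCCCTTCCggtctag
Ebf1: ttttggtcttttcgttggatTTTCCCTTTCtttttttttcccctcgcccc
Bcl6: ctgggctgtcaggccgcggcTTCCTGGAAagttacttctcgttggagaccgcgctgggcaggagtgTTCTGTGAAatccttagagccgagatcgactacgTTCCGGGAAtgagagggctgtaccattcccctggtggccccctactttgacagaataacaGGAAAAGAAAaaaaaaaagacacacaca
A match of letters is a description of the sequence and not evidence of binding, and the arrays do not measure binding.

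Cell identity was read first, because co-culture samples carry the partner's name in their titles and DP42 in their cell type label. Expression values are log2 signals made with RMA, and a difference of 1 is 2-fold. The lower quartile of the 22180 genes lay between 6.20 and 6.41 on the 6 arrays, the median between 7.27 and 7.38 and the upper quartile between 8.87 and 9.13. Brightness depends on the probes of each probe set, so a place in this range is not an abundance, and no detection call was used. Cd79a, a signalling chain of the B cell receptor, read 12.06 to 12.27 on the 6 arrays. Ms4a1, the gene of CD20, read 6.04 to 6.52 and was below the lower quartile on 4 arrays. Of the defining plasma cell markers, the proteoglycan gene Sdc1 read 8.38 to 8.67, above the median throughout. Jchain, which joins secreted antibody, read 5.15 to 5.56, and Tnfrsf17, the gene of the survival receptor BCMA, 5.74 to 6.23, both below the lower quartile on all 6 arrays. They are 2 of the 24 plasma cell identity genes, a list whose array means were 8.85 to 8.99, near the upper quartile, with 3 of 24 below the lower quartile on each array. The 27 measured B cell identity genes had array means of 9.39 to 9.44, above the upper quartile, with 3 or 4 of 27 below the lower quartile.

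Signs of the partner cells were read in the same way. The fixed mature B cell markers, 11 measured of 14, had array means of 9.12 and 9.09 alone, 9.13 and 9.11 beside B cells and 9.08 and 9.10 beside neutrophils, a spread of group values no wider than that between arrays of 1 group; 0 of the 11 passed in any comparison. The 20 neutrophil markers had means of 6.61 and 6.70 alone, 6.66 and 6.73 beside B cells and 6.98 and 7.03 beside neutrophils, and 5 of the 20 rose over culture alone (limma), where 0.131% of all genes did. The count of 5 did not hold when an alone or neutrophil array was left out: it was lower, as was that over all genes. All probe sets gave 0, where 0% of all genes passed. Over B cell co-culture 1 of the 20 rose, Ngp, where 0.0316% of all genes did. Ngp, a neutrophil granule gene, read 5.57 and 5.76 alone, 5.93 and 6.11 beside B cells and 7.27 and 7.70 with neutrophils. S100a8, another of the 20, read 5.51 and 5.65 alone, 5.44 and 5.48 beside B cells and 6.26 and 6.12 beside neutrophils. S100a9 read 7.14 to 7.62 on the 6 arrays and did not pass. Ly6g, the surface marker of mouse neutrophils, read 5.30 to 5.98 and stayed below the lower quartile on all 6 arrays. Monocyte and macrophage markers (13 of 14 measured) had array means from 7.16 to 7.31, and 1 of the 13 rose with neutrophils: Ly6c2, a surface antigen of inflammatory monocytes, read 5.71 and 5.75 alone, 5.53 and 5.70 beside B cells and 7.14 and 7.12 beside neutrophils. In the main fit 0.0316% of all genes rose against B cells and 0.131% against alone. Leaving out single arrays, the Ly6c2 difference ran from 1.43 to 1.60 over B cells and from 1.38 to 1.42 over alone. With all probe sets 0 of the 13 passed in either comparison with neutrophils, where 0% of all genes did. The array means of T and NK cell markers (13 of 14) were 7.05 to 7.16, and 0 of the 13 passed. Csf1r, a macrophage receptor, read 7.09 to 7.41 and Cd3e, a T cell receptor chain, 6.69 to 6.89. The part of carried-over cells in the values below was not tested.

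**Figure D1:**
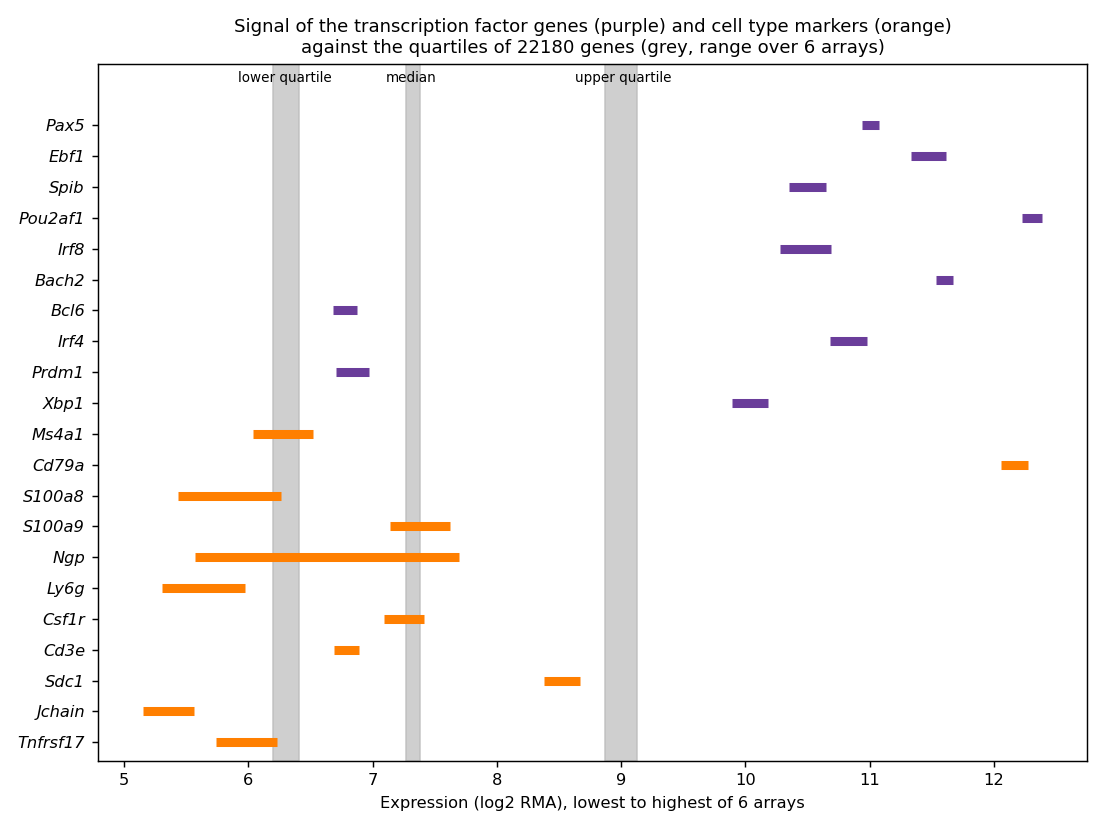
Lowest to highest log2 RMA signal over 6 arrays (horizontal axis) for the 10 transcription factor genes (purple) and for markers of B cells, neutrophils, macrophages, T cells and plasma cells (orange), with the quartiles of 22180 genes in grey. Prdm1 and Bcl6 lie between the lower quartile and the median, and the other 8 transcription factor genes lie above the upper quartile.

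The factors that specify the B lineage were among the bright genes. Pax5 (probe set 17424884) read 11.00 and 10.95 alone, 10.94 and 10.96 beside B cells, and 10.99 and 11.08 beside neutrophils. The groups alone and with neutrophils overlapped, and those with B cells and with neutrophils did not. It was brighter than 95.3% to 96.2% of the genes on each array. The difference between neutrophil and B cell co-culture was 0.08 ± 0.09 (95% interval -0.13 to 0.29, limma adjusted p = 0.580). Its 6 values spanned 0.14, and 4.54% of all genes had a smaller range. That share was 4.56% for Bach2, 8.75% for Pou2af1 and 13.6% for Bcl6. It lay between 33.9% and 41.6% for Prdm1, Ebf1, Xbp1, Spib and Irf4 and was 66.3% for Irf8. By the range of the 3 group means, 60.4% of genes moved less than Spib and 60.5% less than Prdm1. Ebf1 (17248691), the early B cell factor, read 11.46 and 11.33 alone, 11.61 and 11.36 beside B cells and 11.57 and 11.53 beside neutrophils. Both neutrophil arrays lay above both alone arrays, and the B cell arrays spread over almost the whole range. Neutrophils minus alone gave 0.15 ± 0.11 (interval -0.11 to 0.41, adjusted p = 0.484) for Ebf1 and 0.06 ± 0.09 (-0.15 to 0.27, adjusted p = 0.748) for Pax5.

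Spib, Pou2af1 and Irf8 serve mature B cells. Spib (17490274), which encodes the ETS factor Spi-B, read 10.59 and 10.50 alone, 10.35 and 10.41 beside B cells and 10.55 and 10.65 beside neutrophils. It was the 1 gene of the 10 that stood lower on both B cell arrays than on all 4 others. B cell minus alone was -0.17 ± 0.09 (interval -0.38 to 0.05, adjusted p = 1), and neutrophils minus B cells was 0.22 ± 0.09 (interval 0.00 to 0.43, adjusted p = 0.246 in limma). Neutrophils minus alone was 0.05 ± 0.09 for Spib and became -0.03 with quantile normalisation. Pou2af1 (17517209), the octamer cofactor OCA-B, was the brightest of the 10 against its arrays, above 99.4% of genes on each. Its values were 12.22 and 12.27 alone, 12.39 and 12.25 beside B cells and 12.26 and 12.32 beside neutrophils, with overlap between every pair of groups.

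Irf8 (17506279) is an interferon regulatory factor of B cells and myeloid cells that interferons are known to induce. It read 10.38 and 10.53 alone, 10.68 and 10.28 beside B cells and 10.69 and 10.52 beside neutrophils, so the 2 arrays of the B cell co-culture held both the lowest value and one of the highest. Its within-group SD was 0.19, against a median of 0.10 over all genes. Neutrophils minus alone was 0.15 ± 0.14 (interval -0.17 to 0.48, adjusted p = 0.563) and neutrophils minus B cells 0.12 ± 0.14 (interval -0.20 to 0.45, adjusted p = 0.586). The latter became 0.32 without B-cell replicate 1 (adjusted p = 0.0808) and -0.08 without B-cell replicate 2 (adjusted p = 0.855). A second probe set of Irf8 (17548703) was dimmer, at 7.26 to 7.76, and gave 0.07 ± 0.20 for neutrophils minus alone (adjusted p = 0.857) and -0.004 ± 0.20 for neutrophils minus B cells (adjusted p = 0.992). Beside Irf8, 12 of 25 measured genes of the type I interferon response rose with neutrophils over culture alone and 0 fell (0.131% and 1.36% of all genes), with Irf9, a subunit of the interferon-activated complex ISGF3, 0.96 ± 0.09 higher (adjusted p = 0.00801). The count of 12 did not hold when an alone or neutrophil array was left out: it was lower, as was that over all genes. With all probe sets it was 0, where 0% of all genes passed.

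Bach2 and Bcl6, repressors that oppose the plasma cell programme, differed in signal. Bach2 (17412374) read 11.61 and 11.54 alone, 11.58 and 11.56 beside B cells and 11.67 and 11.67 beside neutrophils. Both neutrophil arrays lay above the 4 others, by little: 0.10 ± 0.09 over B cells (interval -0.10 to 0.31, adjusted p = 0.472) and 0.10 ± 0.09 over alone (interval -0.10 to 0.31, adjusted p = 0.547). Another probe set (17423741) names Bach2 together with an antisense gene, Bach2os, and was not used. It read 8.13 and 7.97 alone, 8.03 and 8.15 beside B cells and 7.89 and 7.99 beside neutrophils. On that probe set the neutrophil arrays did not lie above the others. Bcl6 (17329433), the regulator of germinal centre B cells, read 6.68 and 6.70 alone, 6.88 and 6.77 beside B cells and 6.71 and 6.70 beside neutrophils. Both B cell arrays lay above all others for Bcl6, with 0.13 ± 0.09 for B cells minus alone (interval -0.08 to 0.34) and -0.12 ± 0.09 for neutrophils minus B cells (adjusted p = 0.431). On every array Bcl6 was below the gene median, and 81.4% to 90.7% of 1394 olfactory and vomeronasal receptor genes, which serve the nose and are used here as a guide to signal without transcript, were dimmer.

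Of the plasma cell regulators, Irf4 and Xbp1 were bright and Prdm1 was not. Irf4 (17286295) read 10.84 and 10.74 alone, 10.79 and 10.68 beside B cells and 10.87 and 10.98 beside neutrophils. Both neutrophil values were the highest, with 0.19 ± 0.10 over B cells (interval -0.04 to 0.41, adjusted p = 0.302) and 0.13 ± 0.10 over alone (interval -0.09 to 0.36, adjusted p = 0.481). Xbp1 (17246967) read 9.99 and 10.07 alone, 10.14 and 9.90 beside B cells and 10.18 and 10.16 beside neutrophils. Neutrophils minus B cells was 0.15 ± 0.11 for Xbp1 (interval -0.10 to 0.40, adjusted p = 0.404), with 0.28 without B-cell replicate 1 (adjusted p = 0.0606) and 0.03 without B-cell replicate 2 (adjusted p = 0.941). The probe set does not tell spliced from unspliced Xbp1 mRNA, so its activation was not measured.

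Prdm1 (17240645), the gene of Blimp-1, read 6.70 and 6.78 alone, 6.77 and 6.85 beside B cells and 6.95 and 6.97 beside neutrophils. The neutrophil arrays were the highest and lay above the other 4. The difference was 0.22 over alone (interval 0.01 to 0.43, limma adjusted p = 0.268) and 0.15 ± 0.09 over B cells (interval -0.06 to 0.36, adjusted p = 0.344). Prdm1 was below the gene median on all 6 arrays, brighter than 34.9% to 43.3% of genes, and 81.7% to 93.6% of the receptor genes were dimmer than it. Dim signals are compressed on arrays, and Prdm1 lay within the range of the receptor genes, so the size of the difference is uncertain. The difference kept its direction in every alternative run that held Prdm1, from 0.18 to 0.29 over alone and from 0.11 to 0.25 over B cells. Many of those runs leave the difference as it was.

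**Figure D2:**
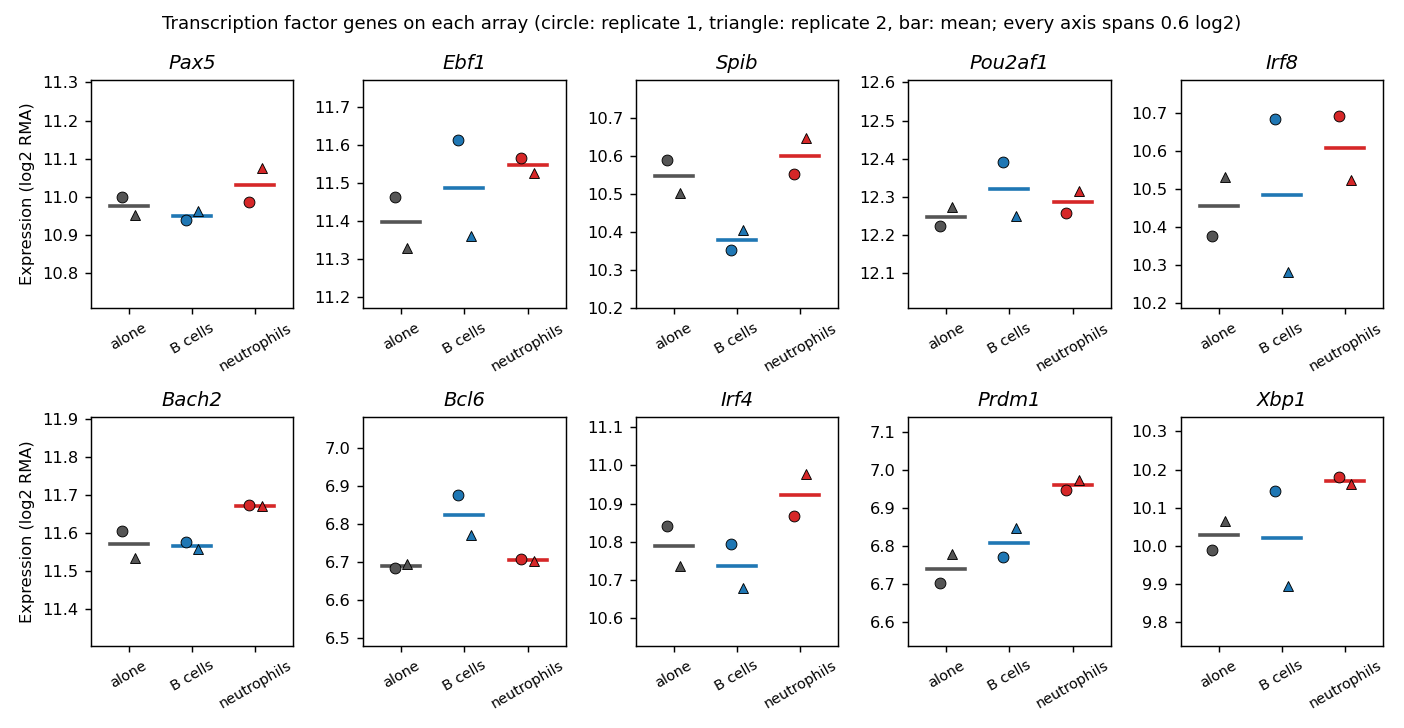
Log2 RMA expression (vertical axis, 0.6 wide in each panel) of the 10 genes on each array, grouped by culture; circles are replicate 1, triangles replicate 2 and bars group means (n = 2). The 2 B cell arrays differ by 0.40 for Irf8 and by 0.02 for Bach2 and Pax5, and the neutrophil arrays lie highest for Prdm1, Irf4, Xbp1 and Bach2.

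Stability was then read for the 10 genes together. In the moderated F-test over the 3 cultures 0 of the 10 passed (limma adjusted p from 0.387 for Prdm1 to 0.856 for Pou2af1), where 42 of all 22180 genes (0.189%) passed. An unadjusted p under 0.05 in this test was reached by 0 of the 10, and the share of all genes that reached it is not given here. Their median within-group SD was 0.06 against 0.10 for all genes, and the median range of their 3 group means was 0.15 against 0.19. For the genes at or above the median brightness these medians were 0.09 and 0.18. For neutrophils minus B cells 0 of the 10 passed, beside 0.0496% of all genes (0.0316% higher and 0.018% lower), and 1 (Spib) had an unadjusted p under 0.05, beside 20.1%. For neutrophils minus alone 0 passed, beside 1.49% (0.131% higher and 1.36% lower), and 1 (Prdm1) had an unadjusted p under 0.05, beside 17.7%. B cells minus alone gave 0 passing, beside 0% (0% in each direction), and 0 had an unadjusted p under 0.05, beside 869 genes (3.92%). The arrays of the 2 groups did not overlap for 7 of the 10 genes in the first comparison (6 higher, 1 lower; 56.7% of all genes, 30% higher and 26.7% lower). This held for 6 in the second, all higher (63% of all genes, 35.6% higher and 27.4% lower), and for 2 in the third, Bcl6 higher and Spib lower (27.1%, with 13.5% in each direction). Taken 1 gene at a time, the 95% intervals of the 10 ran from 0.797-fold to 1.36-fold in the first, from 0.874-fold to 1.39-fold in the second and from 0.767-fold to 1.28-fold in the third. The comparisons share arrays in pairs, so their values are not independent.

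**Figure D3:**
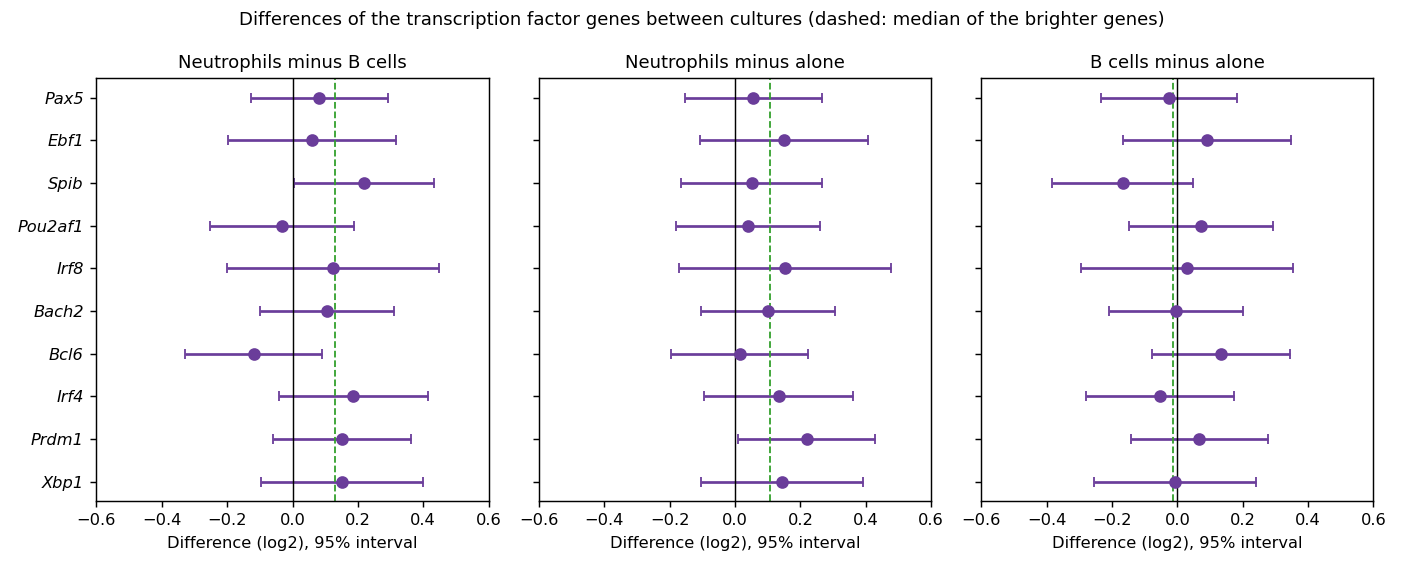
Differences in log2 expression between cultures (horizontal axis) with 95% intervals from limma for the 10 genes in the 3 comparisons, each with 2 arrays a group; the dashed line is the median of the 11090 genes at or above the median brightness. Of the 30 intervals 28 cross 0, and those of Spib (neutrophils minus B cells) and Prdm1 (neutrophils minus alone) lie just above it.

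Most of these small differences had the same sign, and so did those of other bright genes. With neutrophils, 8 of the 10 genes stood higher than with B cells (median 0.11; 51.7% of all genes stood higher) and 10 of 10 stood higher than alone (median 0.12; 54.4% of all genes). For B cells minus alone 5 of 10 stood higher (49.5% of all genes). With quantile normalisation the counts were 6 of 10 against B cells (median 0.03), 8 of 10 against alone (median 0.06) and 8 of 10 for B cells minus alone (median 0.04). All genes had medians of 0.01 and 0.02, but the brighter 11090 had 0.13 and 0.11, with 80.1% and 79.7% of them above 0. With quantile normalisation the medians of all genes were 0.0289 and 0.0376, and those of the brighter genes 0.0557 and 0.0606. When genes were split by brightness into 10 bins of 2218, the median of neutrophils minus alone went from -0.16 in the dimmest bin to 0.10 in the brightest. In the brightest bin, which holds 7 of the 10 genes, 88.6% of genes stood higher with neutrophils than alone. Prdm1 and Bcl6 lie in bin 4 from the dim end, where the median was -0.06 and the 10th to 90th percentiles were -0.33 to 0.13, so Prdm1 at 0.22 stood above that band and Bcl6 at 0.015 within it. For B cells minus alone, Spib at -0.17 lay below the band of its bin (-0.13 to 0.08) and Ebf1 at 0.09 above it. For neutrophils minus B cells, Prdm1 at 0.15 lay above its band (-0.33 to 0.09) and Pou2af1 at -0.03 below its own (0.03 to 0.22). Each band leaves out 10% of the genes of its bin on either side, so a place outside it does not by itself set a gene apart. The part of this brightness trend in the differences was not tested. The genes named in this reading were chosen after their values were seen.

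**Figure D4:**
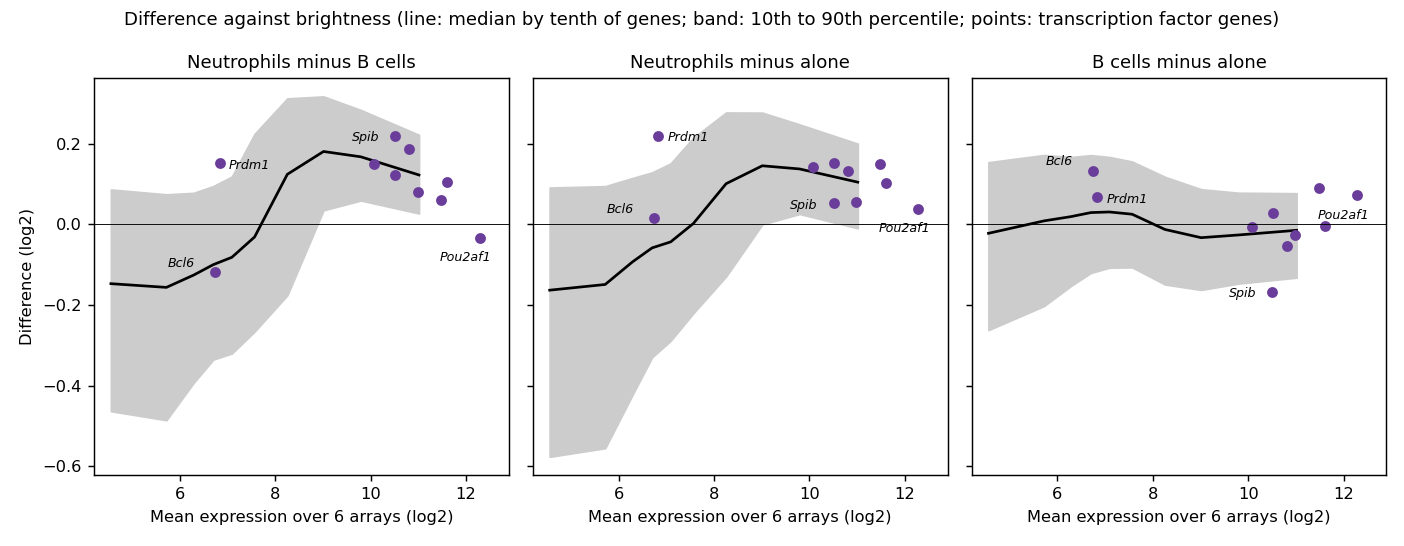
Difference in log2 expression (vertical axis) against mean log2 expression over 6 arrays (horizontal axis) in the 3 comparisons; the line and band give the median and the 10th to 90th percentiles in 10 bins of 22180 genes, and points are the 10 transcription factor genes, of which 4 are named. In both comparisons with neutrophils the line passes from below 0 for dim genes to above 0 for bright ones, and Prdm1 lies above the band. Pou2af1 lies below it for neutrophils minus B cells, and each band leaves out 10% of genes on either side.

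The B cell co-culture carried the largest spread. B-cell replicate 1 was brighter than replicate 2 for 7 of the 10 genes (median 0.11) and for 8494 of the 11090 brighter genes (median 0.13). Replicate 1 also correlated more closely with neutrophil replicate 1 (0.996 over genes) than with its own replicate (0.992). Without B-cell replicate 1, 5453 genes passed for neutrophils minus B cells instead of 11 (24.6% of all genes, 11.7% higher and 12.8% lower), and without replicate 2 only 1 did. These fits leave 1 array in the B cell group, which is assumed to vary like the other groups, so they say nothing about the stability of the 10 genes. Ebf1 changed sign in that comparison without replicate 2, at -0.07, as did Pou2af1 without replicate 1, at 0.04.

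Other transcription factors of the B lineage gave 0 of 38 measured (43 listed) past the threshold in each comparison, and their median differences were 0.11 for neutrophils minus B cells, 0.09 for neutrophils minus alone and 0.01 for B cells minus alone. Zbtb20, a zinc finger repressor of the B lineage, had the smallest p in both comparisons with neutrophils: it read 6.98 and 7.07 alone, 6.91 and 7.18 beside B cells and 6.59 and 6.64 beside neutrophils. Its difference was -0.44 ± 0.11 against B cells (adjusted p = 0.148) and -0.42 ± 0.11 against alone (adjusted p = 0.122). Bhlhe41, a repressor active in B-1 cells, stood 0.35 ± 0.10 higher with neutrophils than with B cells (adjusted p = 0.155), and Klf2, a quiescence factor, 0.31 ± 0.10 higher than alone (adjusted p = 0.175). In the third comparison, B cells minus alone, Id3, an inhibitor of E proteins, stood at -0.26 ± 0.11 and Bhlhe41 at -0.20 ± 0.10, both with adjusted p = 1. Without B-cell replicate 1, 7 of the 38 were higher and 1 lower for neutrophils minus B cells, beside 11.7% and 12.8% of all genes. Zbtb20 passed against alone when 1 B cell array was left out (adjusted p = 0.0337) and not when an alone or neutrophil array was.

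B cell identity genes, many of them targets of Pax5 and Ebf1, gave 0 of 27 measured (34 listed) past the threshold in each comparison, with medians of 0.07, 0.05 and -0.01. Cr2, the gene of complement receptor CD21, was the nearest. It read 6.95 and 6.62 alone, 6.68 and 6.86 beside B cells and 6.22 and 6.12 beside neutrophils, a difference of -0.60 ± 0.13 against B cells (adjusted p = 0.133) and -0.61 ± 0.13 against alone (adjusted p = 0.0612). Cr2 passed against alone when 1 B cell array was left out (adjusted p = 0.0434), with trend and robust settings (0.0438) and with centred arrays (0.0419), and not when an alone or neutrophil array was left out. Its signal lay below the gene median on all arrays. Tnfrsf13c, the receptor of BAFF, stood 0.28 ± 0.12 higher with neutrophils than with B cells (adjusted p = 0.251), and Bank1, an adaptor of B cell receptor signalling, 0.24 ± 0.11 higher with neutrophils than alone (adjusted p = 0.287). For B cells minus alone the smallest p were those of Bank1 (0.31 ± 0.11) and the activation marker Cd83 (0.28 ± 0.10), with adjusted p = 1. Without B-cell replicate 1, 1 of the 27 was higher and 2 lower for neutrophils minus B cells, beside the same 11.7% and 12.8% of all genes.

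Among 14 measured genes that Pax5 represses in B cells (16 listed) 0 passed, with medians of 0.03, 0.04 and -0.04. For neutrophils minus B cells the receptor tyrosine kinase gene Flt3 stood 0.30 ± 0.10 higher (adjusted p = 0.180) and the syndecan gene Sdc4 0.31 ± 0.11 higher (adjusted p = 0.209). For neutrophils minus alone the T cell factor Gata3 stood at 0.18 ± 0.09 and the costimulatory receptor Cd28 at -0.17 ± 0.09 (adjusted p = 0.331 and 0.352). Gata3 at 0.22 ± 0.09 and Sdc4 at -0.21 ± 0.11 had the smallest p for B cells minus alone, with adjusted p = 1. Leaving out B-cell replicate 1, 3 of the 14 were higher and 1 lower for neutrophils minus B cells, beside 11.7% and 12.8% of all genes.

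Plasma cell genes were read next, and whether Prdm1, Irf4 or Xbp1 regulates them in DP42 was not tested. Cd28 stands both in this list and in that of genes repressed by Pax5. Of 24 plasma cell identity genes, all measured, 0 passed in each comparison, with medians of 0.11, 0.07 and -0.01. Sec11c, a signal peptidase subunit, stood 0.32 ± 0.10 higher with neutrophils than with B cells (adjusted p = 0.188), and Tnfrsf17 stood at -0.31 ± 0.11 (adjusted p = 0.208). Against culture alone the smallest p were those of Cd28 and Tnfrsf17 (-0.21 ± 0.11, adjusted p = 0.357), and for B cells minus alone those of the chaperone Creld2 (0.21 ± 0.12) and the interleukin-6 receptor gene Il6ra (-0.17 ± 0.11). Without B-cell replicate 1, 6 of the 24 were higher and 1 lower for neutrophils minus B cells, where 24.6% of all genes passed (11.7% higher and 12.8% lower).

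Xbp1 targets of the secretory pathway gave 0 of 32 measured (34 listed), with 30 of 32 above 0 in both comparisons with neutrophils and medians of 0.14 and 0.10, beside 0.13 and 0.11 for the brighter genes. Dnajb9, a chaperone of the endoplasmic reticulum and target of spliced Xbp1, read 9.99 and 9.99 alone, 10.13 and 9.84 beside B cells and 10.43 and 10.46 beside neutrophils. It stood 0.46 ± 0.11 higher with neutrophils than with B cells (adjusted p = 0.144) and 0.46 ± 0.11 higher than alone (adjusted p = 0.0974), or 1.37-fold. Dnajb9 passed against alone when 1 B cell array was left out (adjusted p = 0.0228) and with trend and robust settings (0.0476), and not when an alone or neutrophil array was left out. Derl2, of the channel that returns misfolded proteins, stood 0.38 ± 0.14 higher with neutrophils than with B cells (adjusted p = 0.204), and its partner Sel1l 0.22 ± 0.10 higher than alone (adjusted p = 0.313). Between B cells and alone Syvn1, a ubiquitin ligase of the same channel, stood at -0.15 ± 0.09 and the translocon gene Sec61b at 0.15 ± 0.10. Without B-cell replicate 1, 6 of the 32 were higher and 0 lower for neutrophils minus B cells, where 11.7% of all genes were higher and 12.8% lower.

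The type I interferon list (25 measured of 26) held genes that did pass on the same arrays. Besides Irf9, Ifi27 stood 1.20 ± 0.11 higher with neutrophils than alone (adjusted p = 0.00741), Oas2, which makes the activator of RNase L, 1.25 ± 0.12 higher and Usp18, an inhibitor of the interferon receptor, 1.03 ± 0.10 higher (adjusted p = 0.00862 for both). All 4 kept their direction but missed the threshold when alone replicate 1 was left out (adjusted p from 0.0778 to 0.122) or alone replicate 2 (from 0.0611 to 0.064). Against culture alone 15 of the 25 passed in a fit of the 4 arrays compared, where 6.03% of all genes did (1% higher and 5.03% lower). For neutrophils minus B cells 5 of the 25 rose (0.0316% of all genes). That count did not hold when any array other than B-cell replicate 1 was left out: it was lower, as was that over all genes. All probe sets gave 0 of the 25, where 0% of all genes passed. With B-cell replicate 1 left out the count was higher, as was that over all genes. B cells minus alone gave 0 passing, with Ifi35 at -0.25 ± 0.10 and Isg15 at 0.29 ± 0.12. The interferon list was drawn up with results of these arrays known, so its direction is no independent evidence.

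Genes whose pattern over the 6 arrays was most like that of Prdm1 and Spib, the 2 of the 10 genes whose group means spanned most, were found by Pearson correlation over all genes analysed. For Prdm1 they were Olfr832, an olfactory receptor (r = 0.997), Oasl1, an interferon-induced gene (r = 0.984), and Igsf6 (r = 0.984). Olfr832 belongs to the receptor genes used above as a guide to signal without transcript. It read 3.56 and 3.67 alone, 3.67 and 3.77 beside B cells and 3.97 and 4.03 beside neutrophils, below the lower quartile throughout. Oasl1 read 7.48 and 7.68 alone, 7.66 and 7.75 beside B cells and 8.16 and 8.21 beside neutrophils. For Spib they were the zinc finger gene Zfp658 (r = 0.997), the histone gene H4c17 (r = 0.993) and Itgam, which encodes the integrin CD11b (r = 0.992). Itgam read 10.88 and 10.81 alone, 10.75 and 10.76 beside B cells and 10.85 and 10.89 beside neutrophils, bright on all 6 arrays, those without partner cells included; the integrin marks myeloid cells. These correlations rest on 6 arrays in 3 groups of 2, and 33 genes had r above 0.95 with Prdm1 and 33 with Spib. A link between the named genes and Prdm1 or Spib was not tested.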

How the data were processed

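The deposited values are log2 signals of 41345 probe sets; the submitters' processing notes name RMA, which subtracts background, normalises between arrays and summarises probes. Normalisation hides a shift common to most genes, and dim signals are compressed. The log2 scale was read from the values, further centring is not stated, and the array model and software version are not given in the sources used here. Probe sets naming 1 gene (23521) were used, those naming several (1814) or none (16010) were not, and the brightest was kept for 1082 genes with several.

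Group means were fitted with limma 3.58.1 (R 4.3.3) on all 6 arrays (3 residual degrees of freedom, prior 5.55), with eBayes, two-sided tests and Benjamini-Hochberg adjustment over 22180 genes at 0.05. The fit was tested on simulated data. Its first pass mark, on recovery of 2-fold changes, was not met and was replaced after that was seen, with the fit unchanged, so changes of that size, and smaller ones more often, can be missed. The differences of the 10 genes were smaller still, so a gene that did not pass is not shown to be unchanged. The number of arrays limits precision. Same-numbered arrays' deviations correlated at -0.07, 0.07 and -0.15, so replicate numbers were not taken as pairs.

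The genes and lists were chosen with earlier results of these data known. Named were the 10 genes, fixed markers, up to 4 passing genes per list and direction or else the 2 with the smallest p, and the 3 genes most correlated with each of 2 of the genes. Symbols not matched in a list are not analysed here. Of 15 promoter patterns looked at, 3 are given, of which the GAS element was picked after its matches were seen. Alternatives covered brightness, moderation, normalisation, centring, probe sets, arrays, replicate block and threshold.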

Additional observations from a re-analysis of the deposited data

How the results depend on the processing

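None of the 10 genes passed under any alternative run in which it was tested (63 of 63 counts were 0, the F-test and the replicate block included). Prdm1 and Bcl6 were not in the run on brighter genes. Of 444 recomputed differences of the 10 genes 425 kept their sign, but many of these could not change. Runs that alter only the moderation, the block or the genes tested leave a difference as it was. So do runs without an array of the group not compared. The other 19 differences changed sign. With quantile normalisation, neutrophils minus B cells gave -0.0125 for Pax5 and -0.0119 for Ebf1, neutrophils minus alone gave -0.0044 for Pax5 and -0.0269 for Spib, and B cells minus alone gave 0.0081 for Pax5, 0.0127 for Bach2 and 0.0268 for Xbp1. With centred arrays Pou2af1 gave 0.0536 for neutrophils minus B cells. Leaving out single arrays, neutrophils minus B cells ran from -0.0657 to 0.18 for Ebf1, from -0.077 to 0.32 for Irf8 and from -0.10 to 0.0372 for Pou2af1. B cells minus alone ran from -0.0353 to 0.22 for Ebf1, from -0.0387 to 0.0315 for Bach2, from -0.17 to 0.23 for Irf8, from -0.11 to 0.0047 for Irf4 and from -0.13 to 0.12 for Xbp1.

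The counts over all genes moved far more. For neutrophils minus B cells the 11 genes (7 higher, 4 lower) became 91 among brighter genes, 33 with trend and robust settings, 7 with quantile normalisation, 135 (45 higher, 90 lower) with centred arrays, 1 in a fit of the 4 arrays compared, 0 in limma with all probe sets (7249 at an unadjusted p under 0.05), 30 at an adjusted p under 0.1 and 1 to 5453 without single arrays. For neutrophils minus alone the 331 became 90, 70 with quantile normalisation, 581 with centred arrays, 1338 in a fit of 4 arrays, 0 with all probe sets (7117 at an unadjusted p under 0.05), 750 at 0.1 and 5 to 1338 without single arrays. For B cells minus alone the 0 became 1 among brighter genes, 1 with trend and robust settings and 3 with centred arrays. With the replicate block the counts were 9, 373 and 0. The crossed pairing, with the B cell numbers exchanged and chosen after seeing the data, gave 299, 742 and 0. The cause of these shifts was not tested. A fit without 1 array assumes that the array left in its group varies like the other groups. With 2 arrays a group, dim signals such as those of Prdm1 and Bcl6 limit what could be seen.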
